A study of Mus musculus with 9 samples.

Results

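The fatty acid oxidation and peroxisomal enzyme genes are a named list of 44 mouse genes that carry fatty acids into the cell, activate them, pass them into mitochondria and peroxisomes and break them down there. A member counted as measured when 3 or more of the 9 arrays showed a probe for it, matched by RefSeq accession, above background. The brightest such probe stood for the gene. All 44 members passed, each with its probe above background on all 9 arrays, among 17740 genes measured in all.

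Fatty acids enter the tubule cell, are joined to coenzyme A and, as carnitine esters, cross into the mitochondrial matrix, where each turn of beta-oxidation shortens the chain and hands electrons to the respiratory chain. Peroxisomes shorten very long and branched chains and pass the products on to mitochondria. The proximal tubule takes most of its energy from this pathway, and many of its genes are targets of the nuclear receptor PPAR alpha, encoded by Ppara.

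Whole left kidneys of male mice aged 10 weeks were profiled as 9 samples, each on 1 Agilent single-colour array. In the ClipR-14 arm (3 samples) a vascular clip had closed the left ureter for 2 days and had then been off for 12 days. In the Clip arm (3 samples) the ureter was closed for 2 days. The control arm held 2 sham-treated samples and 1 untreated sample, for which no day of collection is given. Every mouse, controls included, was of the ISAM genotype (Epo-/-::3.3K-Epo3'-Tg458), a model of anaemia from lack of erythropoietin, on a mixed strain background, so no mouse without this anaemia was part of the comparison.

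Levels below are log2 of the background-subtracted intensity over the 75th percentile of the same array, so that 0 marks that percentile. A level of one gene's probe says nothing against that of another gene's probe. Triplets are in replicate order, with controls as sham 1, sham 2 and the untreated sample. Changes are log2 differences ± SE from a limma fit with 3 arrays per arm, and adjusted p values are Benjamini-Hochberg values over all 17740 genes, with 0.05 as the threshold. The 75th percentile itself ran from 320.4 to 439.2 intensity units, and 52.5% to 58.0% of spots were well above background. The nephron markers Slc34a1 (proximal tubule) and Umod (thick limb) were above background on every array. Havcr1, the injury marker KIM-1, was higher in Clip than in control by 9.52 ± 0.36 (adjusted p = 1.23e-06), although only 1 of 3 control arrays measured it above background.

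After 2 days of obstruction the module was low as a whole. In Clip against control kidneys 39 of the 44 members fell and 0 rose. Of all genes measured 27.5% fell and 21.4% rose, 48.9% in all. The median change of the members was -1.33, against -0.091 over all genes. At least a 2-fold fall was met by 33 members, against 9.49% of all genes, and at least a 4-fold fall by 8 members, against 2.24% of all genes. The 39 members whose Clip arrays all lay below every control array compare with 33.2% of all genes. Each slide carried 1 array of every arm. Within the slides the median Clip minus control difference of the members was -1.22, -1.61 and -1.23, so each slide by itself showed the fall. From whole-kidney RNA, fewer cells that express these genes and less RNA per cell cannot be told apart.

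**Figure D1:**
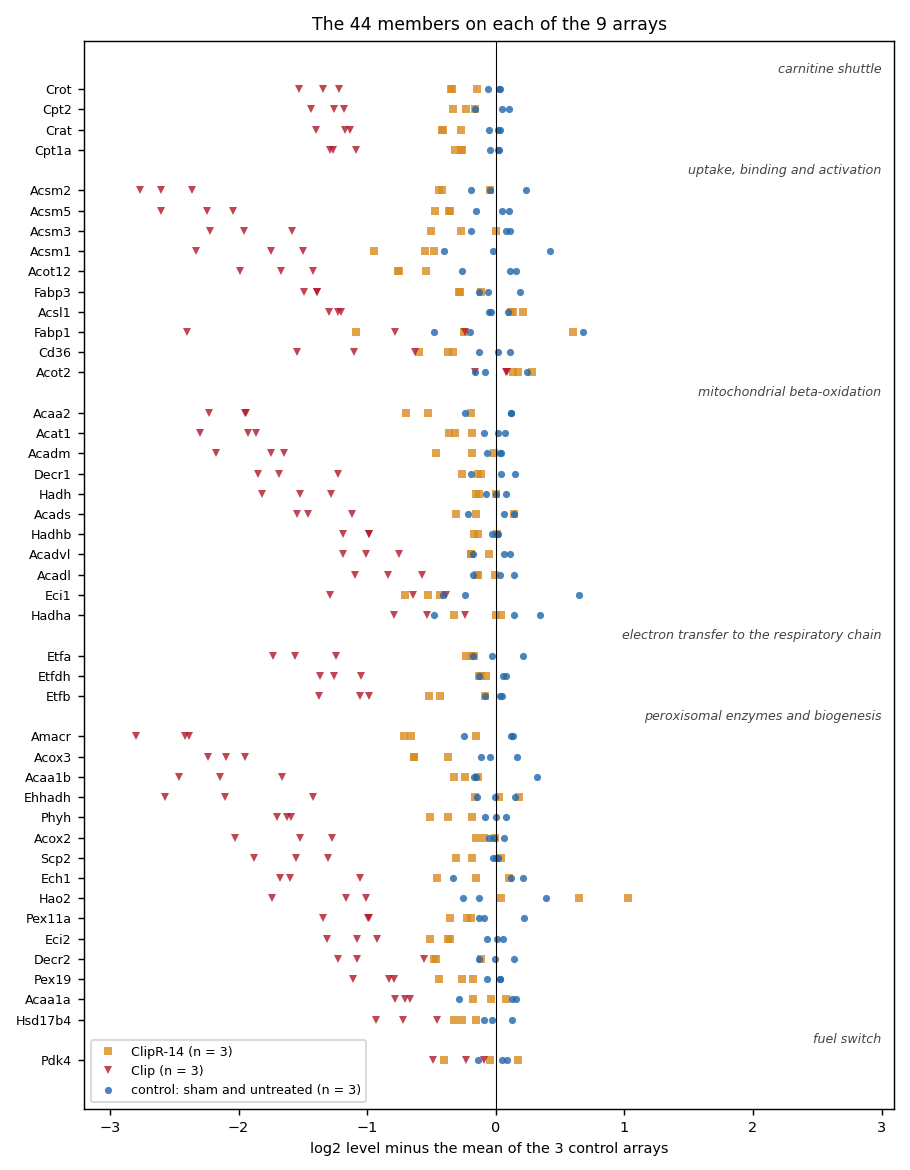
Each row is 1 of the 44 members, grouped by role, and each point is 1 array: its log2 level minus the mean of the 3 control arrays (squares ClipR-14, triangles Clip, circles control). The Clip triangles stand to the left of the other symbols in 39 rows, and the ClipR-14 squares lie close to the control circles.

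Markers of several cell types shifted in Clip as well. Of 25 proximal tubule markers 23 were measured, and 22 of these fell in Clip, with a median change of -1.88. Their summed level was 10.33 to 10.65 in ClipR-14, 8.67 to 9.09 in Clip and 10.47 to 10.75 in control. Here and below, a summed level is the log2 of the sum of the unlogged levels, so the brightest probes of a list weigh most. No proximal tubule marker dropped out of sight: Slc34a1, the sodium-phosphate cotransporter that defines this segment, was at 4.82, 4.27 and 4.87 on the Clip arrays against 7.02, 7.07 and 6.86 on the control arrays. Markers of other nephron segments were lower as well. Of the thick limb and distal tubule markers 13 of 14 fell and 1 rose in Clip (median -1.72), with summed levels of 8.93 to 9.04 in ClipR-14, 7.32 to 7.60 in Clip and 8.77 to 8.96 in control. Of the collecting duct markers 8 of 12 fell (median -0.80), with summed levels of 6.62 to 6.87 in ClipR-14, 4.70 to 5.03 in Clip and 6.66 to 6.92 in control. In the other direction 12 of 13 measured macrophage and monocyte markers rose in Clip, with summed levels of 4.20 to 4.47 in ClipR-14, 5.47 to 5.65 in Clip and 3.52 to 3.79 in control. Of the fibroblast and myofibroblast markers 11 of 12 rose, with summed levels of 6.61 to 6.89, 7.99 to 8.37 and 5.88 to 6.23 in ClipR-14, Clip and control. All 14 tubular injury markers rose as well, with summed levels of 7.92 to 8.13, 9.62 to 9.77 and 7.54 to 7.82 in the same order of arms. Vim is in both this list and the fibroblast list, so these lists are not fully separate. Podocyte markers were lower in 5 of 8 cases and higher in 0 (median -0.51). Endothelial markers shifted little as a list, with 2 of 11 lower and 1 higher (median 0.023). The part that these shifts in markers played in the fall of the module was not tested.

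**Figure D2:**
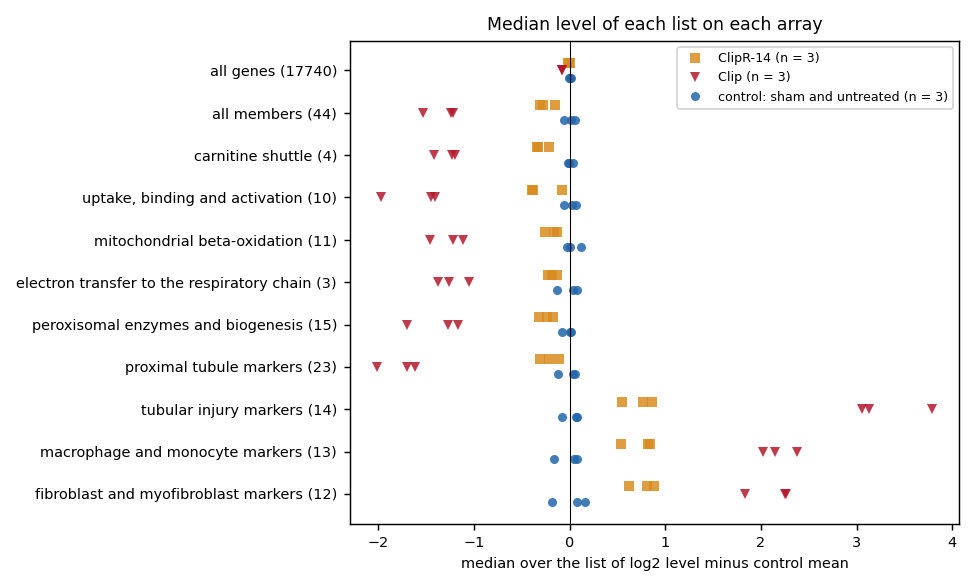
For each list (number of genes measured in parentheses) the points give, per array, the median over its genes of the log2 level minus the control mean; squares are ClipR-14, triangles Clip, circles control. The 44 members sit at -1.53 to -1.22 on the Clip arrays and the proximal tubule markers lower, at -2.01 to -1.62, while injury, macrophage and fibroblast markers stand to the right.

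Entry of fatty acids into the cell and their activation gave the deepest single fall. Of the 10 members of this group 8 fell in Clip, and the median change of the group was -1.56. Acsm2, a medium-chain acyl-CoA synthetase of the mitochondrial matrix, was at 7.37, 6.99 and 6.97 in ClipR-14, at 4.81, 4.64 and 5.05 in Clip and at 7.65, 7.37 and 7.22 in control. All Clip arrays lay far below both other arms, which overlapped each other. The Clip change was -2.58 ± 0.17, a 5.96-fold fall (adjusted p = 1e-05), and Acsm2 was also the member with the largest ClipR-14 minus Clip difference, 2.27 ± 0.17 (adjusted p = 2.61e-05). A second Acsm2 probe gave -1.82 in Clip and 1.76 for ClipR-14 minus Clip, the same directions at smaller sizes. By that probe Acsm2 changed less than Amacr (-2.53 and 2.02). The deepest fall and the largest difference therefore rest on the brighter Acsm2 probe.

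The other medium-chain synthetases went the same way. Acsm5 was at 2.49, 2.49 and 2.37 in ClipR-14, 0.60, 0.24 and 0.80 in Clip and 2.90, 2.69 and 2.95 in control, so that the 3 arms did not overlap. It fell 4.92-fold in Clip (-2.30 ± 0.15, adjusted p = 1e-05). Acsm3 fell by 1.92 and Acsm1 by 1.86 on the log2 scale (adjusted p = 7.8e-05 and 0.00057). The Acsm genes are close relatives, and so are the Acot genes and the thiolase pair Acaa1a and Acaa1b. Whether their probes cross-hybridise could not be checked, since no probe sequences were used here.

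One member for long-chain activation and 1 for fatty acid binding fell. Acsl1, the main long-chain acyl-CoA synthetase of oxidative tissues, stood at 4.79, 4.88 and 4.80 in ClipR-14, 3.44, 3.37 and 3.46 in Clip and 4.62, 4.76 and 4.63 in control. Its Clip arrays spread little (SD 0.05) and lay below all others, with a 2.37-fold fall against control (-1.24 ± 0.08, adjusted p = 1.2e-05). The other 2 probes of Acsl1 gave -1.28 and -1.28. Fabp3, a cytosolic fatty acid binding protein, fell 2.69-fold (adjusted p = 2e-05).

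Cd36, the membrane fatty acid translocase, was at 2.74, 2.52 and 2.78 in ClipR-14, 2.01, 1.57 and 2.49 in Clip and 3.22, 2.98 and 3.13 in control. The 3 arms did not overlap, although Clip 3 came close to the lowest ClipR-14 array. Cd36 fell 2.13-fold in Clip against control (-1.09 ± 0.21, adjusted p = 0.00285). Adipocytes also express Cd36. The summed level of 8 measured adipocyte markers varied widely within each arm, 1.36 to 3.66 in ClipR-14, 0.10 to 2.51 in Clip and 0.56 to 3.69 in control, and its part in the Cd36 values was not tested. Acot12, a thioesterase that releases acetate from acetyl-CoA, was at 3.70, 3.49 and 3.48 in ClipR-14, 2.57, 2.25 and 2.82 in Clip and 4.40, 4.35 and 3.98 in control. It fell 3.24-fold in Clip (-1.69 ± 0.17, adjusted p = 8.14e-05), again with 3 separate arms.

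The carnitine shuttle fell in full, with all 4 members lower in Clip and a narrow range of changes, from -1.36 to -1.21. Cpt1a, the outer-membrane carnitine palmitoyltransferase that controls long-chain entry and is inhibited by malonyl-CoA, was at 4.74, 4.68 and 4.73 in ClipR-14, 3.72, 3.74 and 3.92 in Clip and 5.02, 5.03 and 4.96 in control. These arms did not overlap, and the spread within each was small (SD 0.03 in ClipR-14, 0.11 in Clip and 0.04 in control). Against control, Cpt1a fell 2.32-fold in Clip (-1.21 ± 0.09, adjusted p = 1.56e-05). A second, dimmer Cpt1a probe gave -1.51.

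Crot, which makes carnitine esters of the medium-chain products of peroxisomes, was at 4.35, 4.16 and 4.16 in ClipR-14, 3.16, 2.98 and 3.29 in Clip and 4.44, 4.54 and 4.53 in control. Cpt2, which regenerates acyl-CoA on the matrix side, was at 5.41, 5.34 and 5.24 in ClipR-14, 4.39, 4.14 and 4.32 in Clip and 5.62, 5.68 and 5.42 in control. Crat, the acetyl transferase of the shuttle, was at 3.55, 3.41 and 3.40 in ClipR-14, 2.69, 2.42 and 2.65 in Clip and 3.77, 3.83 and 3.85 in control. In each of these 3 genes the Clip arrays were lowest, the ClipR-14 arrays stood between, and no array crossed into another arm. The Clip falls were 2.57-fold for Crot, 2.45-fold for Cpt2 and 2.35-fold for Crat (adjusted p = 2.41e-05, 3.64e-05 and 2.76e-05).

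Mitochondrial beta-oxidation lost 9 of its 11 members past the threshold in Clip, with a group median of -1.38. The deepest changes in this group were those of 2 thiolase genes, Acaa2 and Acat1. Acaa2, the matrix 3-ketoacyl-CoA thiolase, was at 6.34, 5.84 and 6.01 in ClipR-14, 4.58, 4.30 and 4.59 in Clip and 6.29, 6.65 and 6.66 in control. Acat1, the acetoacetyl-CoA thiolase shared with ketone body use, was at 5.94, 5.81 and 5.76 in ClipR-14, 4.19, 3.82 and 4.26 in Clip and 6.04, 6.20 and 6.14 in control. Clip arrays of Acaa2 and of Acat1 lay more than 1 log2 unit below every other array of the same gene. The falls against control were 4.12-fold for Acaa2 (-2.04 ± 0.16, adjusted p = 2.62e-05) and 4.09-fold for Acat1 (-2.03 ± 0.13, adjusted p = 9.18e-06).

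The acyl-CoA dehydrogenases, which open each turn of the cycle and differ in the chain lengths they take, fell by different amounts. Acadm, for medium chains, was at 7.34, 6.89 and 7.17 in ClipR-14, 5.61, 5.18 and 5.71 in Clip and 7.39, 7.39 and 7.28 in control. Its ClipR-14 and control arrays overlapped and the Clip arrays did not, a 3.63-fold fall (-1.86 ± 0.16, adjusted p = 4.24e-05). Acads, for short chains, changed by -1.38 ± 0.17 (adjusted p = 0.000216). The long-chain enzymes changed less, Acadvl by -0.98 ± 0.13 (adjusted p = 0.0004) and Acadl by -0.83 ± 0.15 (adjusted p = 0.00166). The differences in size between these genes were not tested, and each rests on its own probe.

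Of the other members of this group, Hadh, the medium- and short-chain hydroxyacyl-CoA dehydrogenase, fell 2.91-fold. Hadhb, the thiolase subunit of the trifunctional protein, fell 2.07-fold (-1.05 ± 0.09, adjusted p = 4.59e-05). Decr1, the dienoyl-CoA reductase needed for unsaturated chains, changed by -1.59 (adjusted p = 0.000106), and its second probe gave -1.54. All Clip arrays of these 3 genes lay below all control arrays.

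Electrons from the dehydrogenases pass through the electron transfer flavoprotein and its oxidoreductase, and all 3 of these genes fell in Clip. Etfa, the alpha subunit, was at 4.21, 4.15 and 4.20 in ClipR-14, 2.81, 2.65 and 3.13 in Clip and 4.20, 4.34 and 4.59 in control. Etfdh, the oxidoreductase, was at 4.52, 4.58 and 4.53 in ClipR-14, 3.39, 3.28 and 3.60 in Clip and 4.52, 4.70 and 4.73 in control. The ClipR-14 arrays of Etfa and Etfdh agreed closely with each other (SD 0.03 each) and overlapped the control arrays, with the Clip arrays about 1 unit lower. Etfa fell 2.85-fold (adjusted p = 6.68e-05), Etfdh 2.34-fold (adjusted p = 4.2e-05) and the beta subunit Etfb 2.20-fold (adjusted p = 0.000298).

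In the peroxisome all 15 members fell in Clip, with a median change of -1.44. Amacr, the racemase that prepares branched chains for oxidation, was at 6.79, 6.28 and 6.23 in ClipR-14, 4.53, 4.15 and 4.56 in Clip and 7.08, 7.06 and 6.69 in control. Acox3, an acyl-CoA oxidase for branched chains, was at 3.84, 3.57 and 3.57 in ClipR-14, 2.11, 1.97 and 2.26 in Clip and 4.37, 4.16 and 4.10 in control. The Clip arrays of both were more than 1 unit below all others, and the 3 arms of Acox3 stood apart. Amacr fell 5.79-fold (-2.53 ± 0.19, adjusted p = 1.92e-05) and Acox3 4.28-fold (-2.10 ± 0.12, adjusted p = 7.45e-06). Other enzymes of branched-chain breakdown fell as well, Phyh, the phytanoyl-CoA hydroxylase, 3.11-fold, Acox2 3.05-fold and the sterol carrier protein and thiolase gene Scp2 2.99-fold.

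Ehhadh, the L-bifunctional enzyme and a known PPAR alpha target, was at 5.41, 5.07 and 5.26 in ClipR-14, 3.13, 2.66 and 3.81 in Clip and 5.22, 5.38 and 5.08 in control. Its Clip arrays were low but uneven (SD 0.58), with Clip 2 lowest, and the fall was 4.08-fold (-2.03 ± 0.26, adjusted p = 0.000297). Hsd17b4, the D-bifunctional enzyme that serves branched chains, changed less, by -0.70 ± 0.13 (adjusted p = 0.00249). Among the thiolases, Acaa1b fell 4.25-fold and Acaa1a 1.65-fold (adjusted p = 8.9e-05 and 0.00242). The size for Acaa1a depended on the probe: its 3 probes gave -0.72, -1.02 and -1.69, all lower in Clip.

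Hao2, a 2-hydroxy acid oxidase found mainly in kidney and liver, was at 3.78, 4.77 and 4.39 in ClipR-14, 2.58, 2.00 and 2.73 in Clip and 3.48, 3.61 and 4.13 in control. It fell 2.47-fold in Clip (-1.30 ± 0.29, adjusted p = 0.00627), and 2 of its 3 ClipR-14 arrays stood above every control array. The auxiliary enzymes Ech1, Eci2 and Decr2, which handle double bonds, changed by -1.44, -1.11 and -0.95. The biogenesis genes Pex11a, which drives peroxisome division, and Pex19, a carrier for peroxisomal membrane proteins, fell 2.16-fold and 1.88-fold (adjusted p = 0.00025 and 0.000305).

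**Figure D3:**
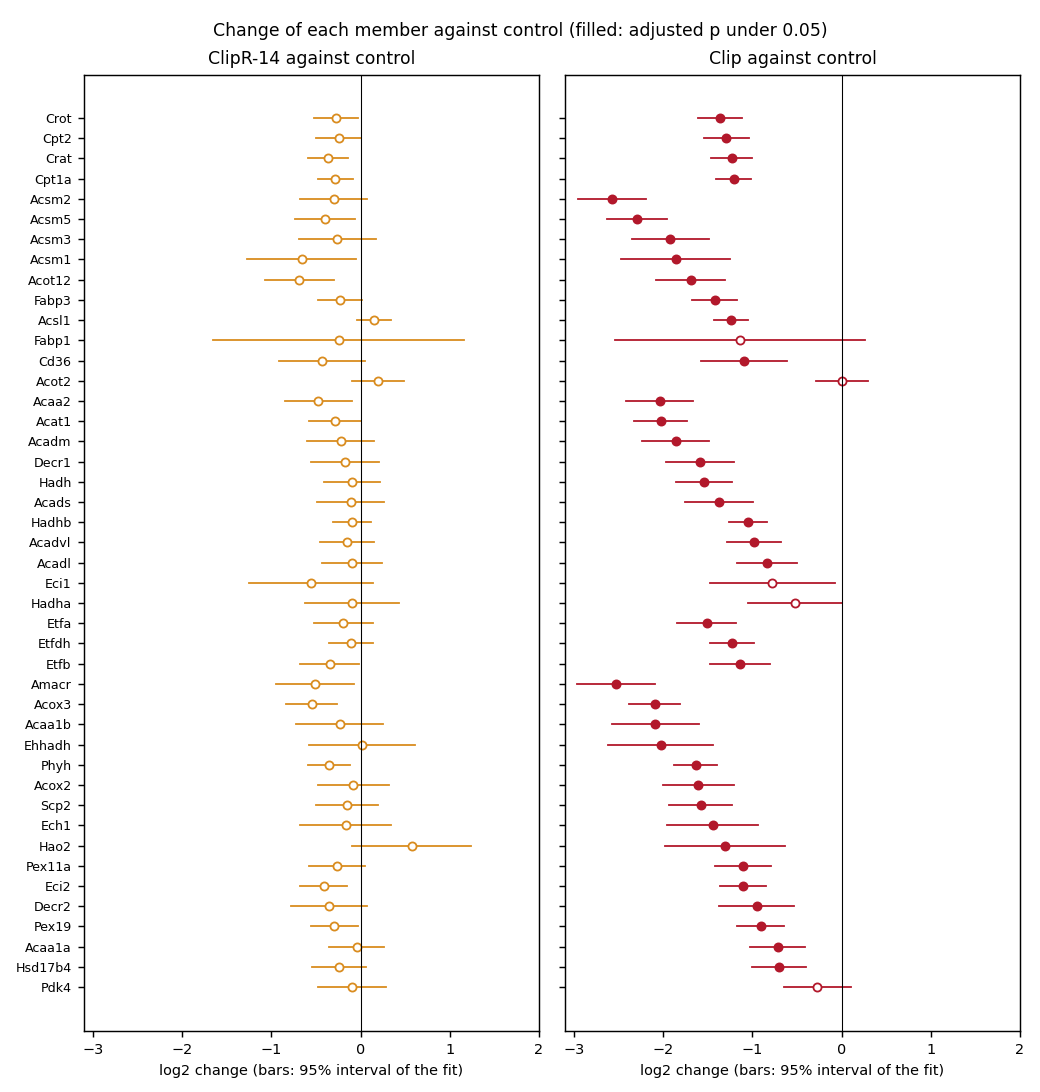
Log2 change of each member against control with its 95% interval from the fit, ClipR-14 in the left panel and Clip in the right panel; filled points have an adjusted p under 0.05. In Clip 39 points are filled, all left of 0, and in ClipR-14 no point is filled.

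The 5 members that did not pass in Clip were singled out after their values were seen. Pdk4, the pyruvate dehydrogenase kinase that spares glucose when fat is burned, was at 1.87, 1.51 and 2.08 in ClipR-14, 1.68, 1.82 and 1.42 in Clip and 1.96, 2.00 and 1.77 in control. All 3 arms overlapped, with a Clip change of -0.27 ± 0.17 (95% interval -0.65 to 0.11, adjusted p = 0.208). Acot2, a mitochondrial thioesterase, lay near -0.5 in every arm, at -0.28, -0.43 and -0.39 in ClipR-14, -0.47, -0.72 and -0.48 in Clip and -0.72, -0.32 and -0.64 in control. Its Clip change was 0.0037 ± 0.13 (95% interval -0.29 to 0.30, adjusted p = 0.984).

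Hadha, the trifunctional protein's other subunit, was at 1.91, 1.87 and 1.54 in ClipR-14, 1.63, 1.33 and 1.08 in Clip and 2.21, 2.01 and 1.38 in control. The arms overlapped, and slide 3 held the lowest array of each. On each slide the Clip array was below the control array, with differences of -0.59, -0.67 and -0.31. Without a slide term the change was -0.52 ± 0.23 (adjusted p = 0.0933), and with slide as a block the adjusted p was 0.0069. Eci1, a mitochondrial enoyl-CoA isomerase, was at 4.63, 4.45 and 4.72 in ClipR-14, 4.51, 3.87 and 4.77 in Clip and 4.75, 5.80 and 4.92 in control. One control array (sham 2) was high and one Clip array (Clip 2) was low, both on slide 2, and the change of -0.78 ± 0.31 did not pass (adjusted p = 0.0654). Without sham 1 it did (adjusted p = 0.0406), and likewise without Clip 3 (adjusted p = 0.0462). Fabp1, the liver-type binding protein, was at -1.06, -1.91 and -2.75 in ClipR-14, -1.90, -4.06 and -2.45 in Clip and -2.14, -0.99 and -1.86 in control. The arms overlapped widely, with Clip 2 far below the rest, and the change was -1.14 ± 0.61 (95% interval -2.55 to 0.27, adjusted p = 0.159).

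**Figure D4:**
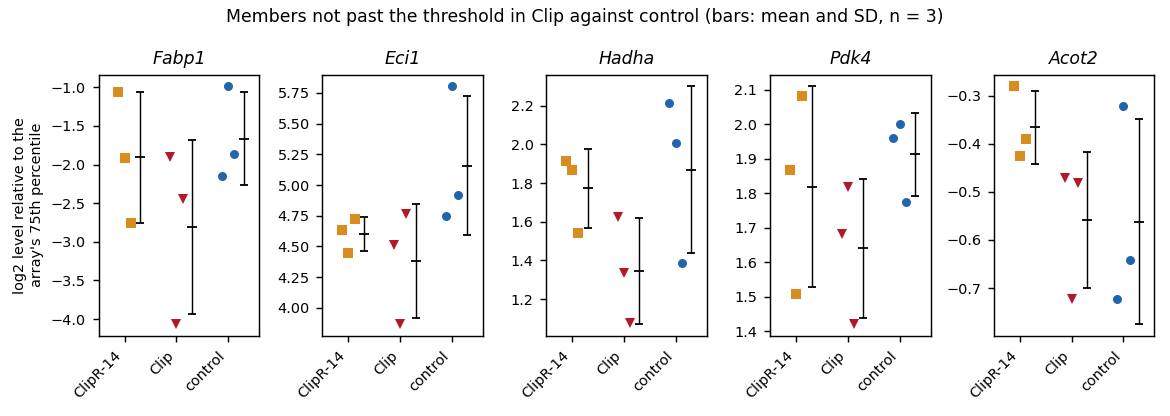
Log2 level of the 5 members that did not pass in Clip against control, with 1 point per array and the mean and SD of each arm (n = 3) beside the points; the vertical scales differ between panels. Clip and control overlap in all 5 panels, and Eci1 and Fabp1 each have single arrays far from the rest of their arm.

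The Clip arrays were not equally low. Clip 2 held the lowest of the 3 Clip values in 39 of 44 members, against 32.9% of all genes. The members' median per array was -1.53 on Clip 2, with -1.25 on Clip 1 and -1.22 on Clip 3, each relative to the control mean. In Ehhadh the gap between Clip 2 and Clip 3 exceeded 1 log2 unit. Phyh, Acsl1 and Fabp3 varied little among the Clip arrays (SD 0.05, 0.05 and 0.06).

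After clip removal the question was whether the module stood again at its control level. In ClipR-14 against control kidneys 0 of 44 members passed the threshold, where 1.83% of all genes did, 0.372% lower and 1.46% higher. At an unadjusted limma p under 0.05 the count was 13 lower and 0 higher, against 9.13% and 12.4% of all genes. The median change of the members was -0.24, against -0.013 over all genes, and within the slides it was -0.11, -0.34 and -0.24. In 40 members the ClipR-14 mean was below the control mean, as in 51.9% of all genes. All ClipR-14 arrays lay below all control arrays in 17 members and above them in 1, against 13.6% of all genes for each direction. The proximal tubule markers had a median change of -0.23 in the same comparison, with 0 of 23 past the threshold. Of the thick limb and distal tubule markers 1 of 14 was higher (median 0.18), and of the collecting duct markers 0 of 12 passed (median 0.068). Of the macrophage, fibroblast and tubular injury markers 5 each were still higher, with a median of 0.81 for the injury markers, and the part of any of these in the members' values was not tested.

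The members nearest to the threshold belong to different steps. Acox3 differed by -0.53, -0.59 and -0.52 on the 3 slides, an even gap, with a fitted change of -0.55 ± 0.12 (95% interval -0.83 to -0.27, adjusted p = 0.0624). With slide as a block its adjusted p was 0.0429, the 1 member called in that fit. The same fit called 1163 of all 17740 genes, 412 lower and 751 higher, so the call does not set Acox3 apart from genes at large. Acot12 changed by -0.69 ± 0.17 (adjusted p = 0.0744) and Crat by -0.37 ± 0.10 (adjusted p = 0.0936). Both kept 3 separate arms, as the levels given above show. The 4 carnitine shuttle genes all had ClipR-14 arrays wholly below control, at -0.37 to -0.24, none past the threshold.

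Other members had fitted values close to control or above it. Ehhadh differed by 0.015 ± 0.26 and Acaa1a by -0.042 ± 0.13, without reaching the threshold. The other 2 probes of Acaa1a gave -0.35 and -0.28, so its closeness to control depended on the probe. Acsl1, chosen after its values were seen, was the 1 member whose ClipR-14 arrays all lay above the control arrays, by 0.16 ± 0.08 in the fit (95% interval -0.035 to 0.35, adjusted p = 0.319), and its other 2 probes gave 0.0042 and 0.043. Hao2 had the highest fitted value of any member, 0.57 ± 0.29 (95% interval -0.10 to 1.25, adjusted p = 0.301). The intervals leave room for differences of either sign in Ehhadh, Acaa1a and Hao2.

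Set against Clip kidneys, 39 of 44 members were higher in ClipR-14 and 0 were lower. Of all genes 23.6% rose and 17.4% fell, 41.0% in all. The median difference was 1.16, against 0.082 over all genes, and 1.14, 1.30 and 0.95 within the slides. In 40 members every ClipR-14 array exceeded every Clip array, against 31.4% of all genes, and 26 members rose at least 2-fold, against 7.58% of all genes. This comparison and Clip against control share the Clip arrays, so the rise of a member here and its fall there are not separate evidence. By role, all 15 peroxisomal members rose (median 1.28), with 9 of 11 mitochondrial beta-oxidation members (1.27), 8 of 10 uptake and activation members (1.20), all 3 electron transfer genes (1.12) and all 4 shuttle genes (0.99). After Acsm2 the largest difference was that of Ehhadh, 2.05 ± 0.26 or 4.13-fold (adjusted p = 0.000418), followed by Amacr at 2.02 ± 0.19. With slide as a block Hadha rose as well (0.43, adjusted p = 0.0176, against 0.176 without the block), which made 40 members. The replicate block over all 9 arrays left the count at 39. The rises of Cd36, Decr2 and Hsd17b4 were smaller, at 0.66, 0.60 and 0.46 (adjusted p = 0.0356, 0.0315 and 0.0241). These 3 calls were lost when some single arrays were left out: without Clip 2, adjusted p was 0.0920 for Cd36, 0.107 for Decr2 and 0.0782 for Hsd17b4. Without Clip 1, ClipR-14 1, ClipR-14 2 or ClipR-14 3, 2 or 3 of these same calls were lost.

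In 16 members every ClipR-14 array was above every Clip array and below every control array, against 6.15% of all genes. Cpt1a, Cpt2, Crat, Crot, Acsm5, Acot12, Cd36 and Acox3, with the levels given above, are among them.

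Genes of the pathway outside the list were read in the same fit. Carnitine supply, with the muscle-type Cpt1b, transporters and carnitine synthesis, had 8 of 9 genes lower in Clip and 1 higher, with a median of -1.68. Cpt1b fell 8.07-fold (-3.01 ± 0.12, adjusted p = 1.32e-06). Bbox1, the last enzyme of carnitine synthesis, was not well above background on any Clip array and fell at least 2.85-fold (adjusted p = 0.000323). The brain-type Cpt1c was the gene that rose, by 0.95 ± 0.26 (adjusted p = 0.0162). A list of other genes of mitochondrial beta-oxidation and related acyl-CoA breakdown had 15 of 16 lower and 0 higher (median -1.17). It was led by Ivd at -1.59 and Acad8 at -1.58, both of branched-chain amino acid breakdown. Pcca, Pccb, Mcee, Echdc1 and Etfbkmt, which lie outside the beta-oxidation cycle, were in this list too. Its count is therefore not of beta-oxidation enzymes alone.

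Further peroxisomal genes were mostly lower. Of 32 other peroxisomal genes listed 25 were measured, and 22 of them fell and 1 rose (median -1.03). Nudt19, a coenzyme A diphosphatase, changed by -2.16 ± 0.44 and Pecr, a trans-enoyl-CoA reductase, by -2.09 ± 0.18. Catalase (Cat), which breaks down the hydrogen peroxide made by peroxisomal oxidases, changed by -1.63 ± 0.14 (adjusted p = 3.53e-05). Paox, a polyamine oxidase, was the gene that rose, by 0.38. Of 14 other peroxins, the proteins that build peroxisomes, 13 fell and 0 rose with a smaller median of -0.78, with Pex14, part of the import machinery, at -1.27 ± 0.29 (adjusted p = 0.00687).

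**Figure D5:**
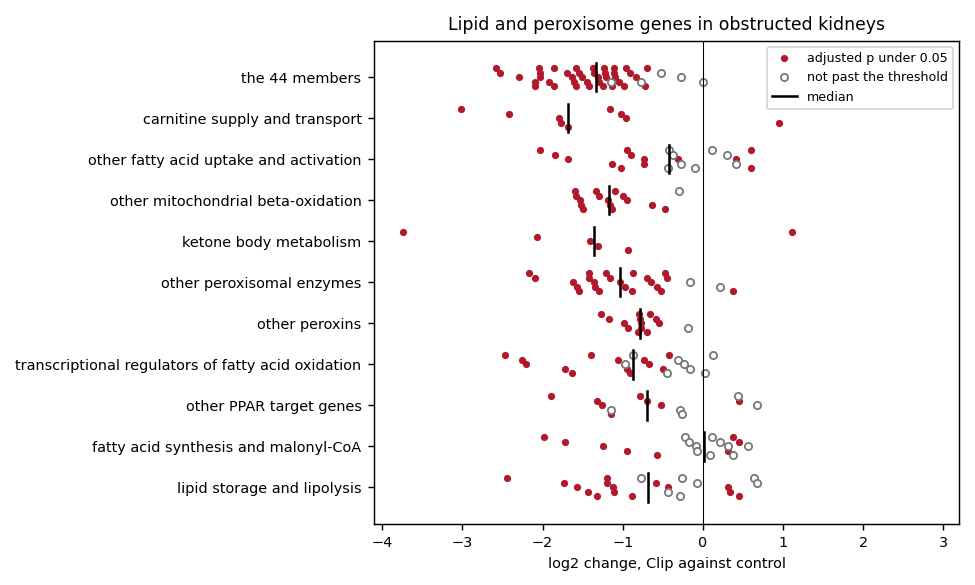
Log2 change in Clip against control for every measured gene of each list (filled, adjusted p under 0.05; open, not past the threshold; bar, median of the list). The 44 members (median -1.33), carnitine supply and the list labelled other mitochondrial beta-oxidation lie mostly left of 0, whereas fatty acid synthesis (median 0.01) spreads to both sides.

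Ketone body genes fell in 5 of 6 cases (median -1.36). Bdh1, the mitochondrial beta-hydroxybutyrate dehydrogenase, fell 4.19-fold, and Acat2, a cytosolic thiolase that feeds sterol synthesis, rose 2.16-fold (adjusted p = 8.61e-05).

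Regulators of the pathway were lower or did not pass. Of 21 measured 13 fell and 0 rose in Clip (median -0.87), with Klf15 at -2.47 ± 0.18 and the estrogen-related receptor gene Esrrb at -2.26 ± 0.14 the deepest. Ppara was at 2.63, 2.74 and 2.93 in ClipR-14, 1.82, 1.45 and 1.91 in Clip and 3.49, 3.47 and 3.37 in control, 3 arms without overlap. It fell 3.28-fold in Clip (-1.71 ± 0.14, adjusted p = 2.56e-05), and in ClipR-14 it was -0.68 ± 0.14 from control (adjusted p = 0.0508). Ppargc1a, the coactivator PGC-1 alpha, gave -0.87 ± 0.34 in Clip (adjusted p = 0.0641). Other PPAR target genes were mixed: 7 of 13 fell and 1 rose, with Slc25a42, a mitochondrial coenzyme A carrier, at -1.89, the fatty acid omega-hydroxylase Cyp4a10 at -1.32 and the lipid droplet coat gene Plin2 at 0.45 ± 0.13.

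Other uptake and activation genes moved in both directions, 10 lower and 3 higher of 21 measured (median -0.43). Acot3 changed by -2.03 and Acss1, a mitochondrial acetyl-CoA synthetase, by -1.84, whereas the long-chain synthetases Acsl5 and Acsl4 rose 1.52-fold each (adjusted p = 0.00233 and 0.0105). Fatty acid synthesis and the malonyl-CoA branch had a median of 0.01, with 5 lower and 3 higher of 18. Acacb, which makes the malonyl-CoA that inhibits Cpt1 enzymes, changed by -1.98 ± 0.13 and Thrsp by -1.73, while Srebf1 and Prkab1 rose by 0.46 and 0.38. Storage and lipolysis genes were lower in 12 and higher in 3 of 22 (median -0.68), with the lipase gene Lpl at -2.44 ± 0.19, Fitm1 at -1.73, Plin2 at 0.45 and Plin3 at 0.33. In ClipR-14 against control 0 genes of these 10 lists passed the threshold, where 1.83% of all genes did. With so small a share over all genes, a count of 0 does not show that these genes stood at their control level.

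Promoter sequence was set beside the members because many of them moved together and several are textbook PPAR targets. RefSeq windows of 300 bases (250 before to 50 after the annotated start, build GRCm38.p6) were at hand for 37 members, 40 windows in all. The direct repeat spaced by 1 base, AGGTCANAGGTCA, was searched on both strands with at most 2 mismatches. PPAR/RXR pairs bind this type of element, but a match does not tell which receptor would bind there. The element was found in 5 of the 40 member windows (12.5%), against 3.86% of all 32851 promoter windows of the same length. With at most 1 mismatch the counts were 2 windows (5%), against 0.554% of all windows. The stretches around 4 of the matches are shown, on the strand of the gene, with the match in capitals. They show how the element differs between Fabp1 and Acot12, with 1 mismatch each, and Cd36 and Etfa, with 2 each.
Fabp1: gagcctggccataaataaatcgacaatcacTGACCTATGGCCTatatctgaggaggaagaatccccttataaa
Acot12: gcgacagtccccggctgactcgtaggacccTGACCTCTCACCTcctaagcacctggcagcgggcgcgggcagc
Cd36: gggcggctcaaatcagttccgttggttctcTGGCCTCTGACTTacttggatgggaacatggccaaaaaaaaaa
Etfa: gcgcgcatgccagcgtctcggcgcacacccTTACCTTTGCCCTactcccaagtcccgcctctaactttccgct
These lie at chr6:71199782-71199854 (Fabp1, plus strand), chr13:91741381-91741453 (Acot12, plus strand), chr5:17835917-17835989 (Cd36, minus strand) and chr9:55512278-55512350 (Etfa, minus strand). In all 4 the element reads on the strand opposite to the gene, and it begins 67, 110, 63 and 77 bases before the start in the same order. The fifth match, AGGACAGAGGTGA in Acox2 (chr14:8258818-8258830, minus strand), begins 9 bases after the start. Of the 5 genes with a match, Acot12, Etfa, Acox2 and Cd36 fell in Clip and Fabp1 did not pass. Among all 44 members 39 fell, with or without a match, and a link between the element and the fall was not tested. The estrogen-related receptor type of site, TCAAGGTCA, had 0 exact matches in the 40 windows, against 0.423% of all windows. With 1 mismatch allowed it was found in 3 (Hao2, Ech1 and Acaa1b; 7.5%), against 7.46% of all windows. A match is a run of letters and not a measured binding site.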

How the data were processed

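Total RNA (500 ng per kidney) was labelled with Cy3 and hybridised to Agilent mouse arrays of design 014868, per the labels' protocols and the file headers. Scanner output was deposited per spot. The intensity used in the main setting was the processed signal, from which Feature Extraction 10.7.3.1 had subtracted background and spatial trend, per the file headers. The median signal and the median background of each spot were deposited as well. Flags for spots well above background, saturated or outlying are deposited as other columns of 0 or 1. The authors' deposited log2 value table was not used: 8080 rows could be compared with the scanner values of the probe they name, and their median correlation was 0.0177.

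Intensities were divided by the 75th percentile of the array and taken to log2. Repeated spots were averaged without outlier-flagged ones. Probes were named through RefSeq accessions (26690 of 41174 with a symbol), kept when well above background on 3 or more arrays, and the brightest stood for each gene, which left 17740 genes. No spot was saturated. The number of arrays, not depth, limits precision. limma 3.58.1 in R 4.3.3 fitted 3 arms over 9 arrays (prior degrees of freedom 2.37), with Benjamini-Hochberg adjustment, and was tested on simulated data. If all arrays of the dimmer arm lay below background, the fold is a lower bound against the dimmer arm's own signal or the lowest signal above background on the array, whichever was higher.

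The members, lists, roles and naming rule were chosen with earlier results of these data known, and several lists and tests derive from an earlier examination of the same arrays. All 44 members may be named. Array values are given for the 2 largest changes per role in Clip, the 3 smallest p values in ClipR-14 against control, the 2 largest ClipR-14 minus Clip differences, and Cpt1a, Acadm, Ehhadh, Pdk4, Cd36 and Hao2, and for Acsl1, Acot2, Hadha, Eci1 and Fabp1, chosen after their values were seen. Pathway genes named are the 2 largest falls and 2 largest rises past the threshold per list, with Cat, Ppara and Ppargc1a added after their values were seen; some genes that this rule names are not reported here. The labels give separate samples but do not state that each is a different mouse, so p values measure the spread between these samples.

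All 3 arms were spread over the 3 slides, 1 array per arm and slide. Slide 3 (untreated, Clip 3, ClipR-14 3) had its own scan date. Residuals of arrays correlated at 0.161 to 0.281 between the 9 same-slide pairs and at -0.239 to 0.00290 between the 18 other pairs. The replicate numbers in the labels follow the slides for sham, Clip and ClipR-14, and Clip and ClipR-14 arrays of the same number correlated at 0.220, 0.269 and 0.269, so the numbers pair these arms. The untreated sample is number 1 but lay on slide 3, and correlated at -0.209 with Clip 1 and with ClipR-14 1, so in comparisons with control the slide is the block that pairs the arrays. Alternatives were normexp background correction (offset 50, on the median signal, because the scanner files used here have no mean signal column), quantile and median scaling, other filters on dim probes, the mean of a gene's probes, slide or replicate number as a block, sham alone as control, robust moderation with a trend, only the 2 arms compared, and each array left out.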

Additional observations from a re-analysis of the deposited data

How the results depend on the processing

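Over 20 alternative settings the members called were 39 to 41 in Clip against control, 36 to 40 in ClipR-14 against Clip and 0 or 1 in ClipR-14 against control. The 1 call was Acox3, with slide as a block (adjusted p = 0.0429) and with robust moderation and a trend (0.0417). Quantile normalization moved the members' medians to -1.11 in Clip against control, -0.13 in ClipR-14 against control and 0.97 in ClipR-14 against Clip. Normexp lowered the counts over all genes to 5626 in Clip against control (8676 in the main setting), 1 in ClipR-14 against control (325) and 4144 in ClipR-14 against Clip (7270), yet it added Hadha (-0.76, adjusted p = 0.0118) and Pdk4 (-0.56, 0.0212) to the members that fell in Clip. Hadha also passed with sham alone as control (0.0122). The count over all genes in ClipR-14 against control varied most: 117 with quantile, 179 with median scaling, 12 without the filter, 1163 with slide as a block, 203 with the replicate block, 514 with robust moderation, 0 with only the 2 arms compared (3384 at an unadjusted limma p under 0.05), and 2 to 343 with single arrays left out, lowest without ClipR-14 2. Without the filter 13597 of 32282 genes were called in ClipR-14 against Clip. The replicate block over all 9 arrays, which joins the untreated sample with slide 1, changed no member's call, whereas slide as a block added Hadha in Clip against control and in ClipR-14 against Clip (40 members each). In ClipR-14 against Clip only Cd36, Decr2 and Hsd17b4 lost calls, under normexp, quantile, median scaling, the 2 arms alone or a left-out array, at adjusted p of 0.0520 to 0.181. Member values with the same direction and call numbered 864 in Clip against control, 856 in ClipR-14 against control and 855 in ClipR-14 against Clip. Sham alone as control is the same fit as leaving out the untreated sample. It enters these counts and the 20 settings under both names.

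The members whose value changed sign had not passed the threshold in the comparison concerned. Acot2 in Clip against control (0.0037) gave -0.023 with normexp, -0.0041 with quantile, -0.039 with median scaling, -0.014 with the replicate block, -0.037 with sham alone and -0.077 to 0.12 with single arrays left out. In ClipR-14 against control, Ehhadh (0.015) gave -0.13 with normexp, -0.095 with median scaling, -0.12 with the replicate block, -0.057 with sham alone and -0.067 to 0.10 with arrays left out. Acaa1a (-0.042) gave 0.0088 with normexp, 0.080 with quantile and -0.18 to 0.038 with arrays left out. Quantile gave 0.041 for Acox2, 0.014 for Etfdh, 0.034 for Hadh and 0.048 for Hadhb, and the replicate block 0.00094 for Acads and 0.032 for Hadha. Leaving out arrays gave -0.34 to 0.076 for Hadha, -0.67 to 0.18 for Fabp1 and -0.22 to 0.063 for Pdk4. In ClipR-14 against Clip, Fabp1 gave -0.081 with normexp and Eci1 -0.036 to 0.41 with arrays left out. The cause of these changes was not tested. Signal over background limits Bbox1 in Clip, and 3 arrays per arm limit all values.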
